A study of Mus musculus with 4 samples.

Results

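The genes described here are 34 genes that mark microglia and other tissue macrophages or that these cells use for immune signalling, uptake and killing. They were taken by gene symbol from a list of 34 symbols, and a gene counted as measured where at least 1 probe set of the array carried that symbol and no other. All 34 were measured, each by 1 probe set, among 19938 genes in the whole table. Their values are log2 ratios to a control array, so 0 is the control level and negative values are below control. Where 2 values are given for a group, the first is repeat 1 and the other repeat 2.

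The samples were cultures of cortical neurons from newborn pups (postnatal day 0) of the SV129 x C57BL/6 mixed strain, hybridised to Affymetrix mouse Gene 1.0 ST arrays. Some pups may have lacked Syt1, since the labels name both Syt1-deficient and wild-type mice as sources and do not tie either to an array. The knockdown group (2 samples) was infected at 5 days in vitro with lentiviruses that carried shRNAs against CaM 1-3, the calmodulin genes. The rescue group (2 samples) received the same shRNAs plus a shRNA-resistant wild-type calmodulin. The control cultures received control lentivirus, so virus infection was common to every group. Cultures were lysed for RNA at 14 to 15 days in vitro. Medium held B27, fetal bovine serum and Ara-C, an inhibitor of DNA synthesis that limits dividing cells. Each of 2 repeats had 1 knockdown, 1 rescue and 1 control array, and both ratios of a repeat therefore share a control array. The labels give the cell type as cortical neurons and do not mention microglia, so the genes below were read in mixed bulk RNA.

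Microglia are the resident macrophages of the brain. They depend on signalling through Csf1r, and the transcription factors PU.1 (encoded by Spi1) and Irf8 set their gene programme. They survey the tissue, sense nucleotides and damaged cells, tag synapses and debris with complement C1q, and engulf and digest what they take up. Cultures of neurons made from newborn cortex can carry a small number of them.

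Because PU.1 binds sites with the core letters GAGGAA, promoters of the 5 members with the lowest values in rescue repeat 1 are shown for the letters they hold (chosen after the values were seen). Each is the 250 bases before the RefSeq transcription start (build GRCm38.p6), written 5′ to 3′ on the strand of the gene, with GAGGAA or its reverse complement TTCCTC in capitals.
Lyz2: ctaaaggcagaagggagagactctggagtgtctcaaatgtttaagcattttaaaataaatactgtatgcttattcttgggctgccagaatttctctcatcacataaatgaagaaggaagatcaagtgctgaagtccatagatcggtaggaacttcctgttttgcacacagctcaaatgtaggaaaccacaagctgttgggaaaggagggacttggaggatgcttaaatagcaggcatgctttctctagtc
Mpeg1: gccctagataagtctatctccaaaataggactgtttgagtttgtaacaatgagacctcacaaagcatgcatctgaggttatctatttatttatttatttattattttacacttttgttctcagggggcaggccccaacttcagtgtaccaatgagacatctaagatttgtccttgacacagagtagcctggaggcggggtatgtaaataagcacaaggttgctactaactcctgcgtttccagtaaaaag
C1qb: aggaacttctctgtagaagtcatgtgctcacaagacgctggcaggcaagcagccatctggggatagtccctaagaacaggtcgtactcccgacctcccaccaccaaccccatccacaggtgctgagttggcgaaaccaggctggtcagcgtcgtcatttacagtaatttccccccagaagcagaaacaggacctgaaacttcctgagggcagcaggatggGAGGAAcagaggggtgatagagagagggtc
C1qc: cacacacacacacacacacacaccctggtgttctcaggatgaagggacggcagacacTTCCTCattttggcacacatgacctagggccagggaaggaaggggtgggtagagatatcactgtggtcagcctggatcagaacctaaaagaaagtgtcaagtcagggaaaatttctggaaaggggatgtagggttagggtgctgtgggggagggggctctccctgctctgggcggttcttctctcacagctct
Itgam: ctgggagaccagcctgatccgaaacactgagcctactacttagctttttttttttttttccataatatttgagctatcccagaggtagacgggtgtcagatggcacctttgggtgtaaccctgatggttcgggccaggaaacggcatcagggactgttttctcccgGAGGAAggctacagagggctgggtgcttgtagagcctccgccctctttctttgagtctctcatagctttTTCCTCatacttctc
The promoters of Lyz2 (chr10:117282273-117282522, minus strand) and Mpeg1 (chr19:12460520-12460769, plus strand) held 0 matches. C1qb (chr4:136886201-136886450, minus strand) and C1qc (chr4:136892915-136893164, minus strand) held 1 each, and Itgam (chr7:128062390-128062639, plus strand) held 2. Promoters were found in the RefSeq table for 24 members, 27 promoters in all. At least 1 match on either strand was present in 15 of these 27 promoters (55.6%), against 7639 of all 32851 promoters (23.3%). A match is a string of letters and not a binding site, no match says nothing about the factor, and no binding was measured here.

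Calmodulin genes gave the check of the labels. Calm2 lay at -1.08 and -1.72 in the knockdown and at -0.84 and -1.28 in the rescue, and Calm3 at -1.32 and -2.40 in the knockdown and at -2.41 and -3.55 in the rescue. Calm2 passed in the knockdown against control (adjusted p = 0.0297, limma with Benjamini-Hochberg adjustment over all 19938 genes, threshold 0.05), and Calm3 did not (0.0577). Neither passed in the rescue against control (limma adjusted p = 0.414 for Calm2 and 0.154 for Calm3), and Calm3 did not in the knockdown against rescue (0.613). With the repeat of each sample as a block, Calm3 passed in all 3 comparisons (limma adjusted p = 0.000284 in the knockdown, 1.58e-05 in the rescue and 0.0169 in the knockdown against rescue), and Calm2 passed in the rescue too (0.0129). All 4 columns were below control for both genes.

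The microglia and macrophage genes lay mostly below control in repeat 1, in knockdown and rescue alike, and closer to control in repeat 2. Their median log2 ratio was -0.23 and 0.06 in knockdown repeats 1 and 2, and -0.23 and -0.10 in rescue repeats 1 and 2. Medians over all genes were -0.02, 0.02, -0.01 and -0.01 in the same columns. In repeat 1, 26 members lay below control in the knockdown and 25 in the rescue. In repeat 2, 15 lay below control in the knockdown and 21 in the rescue. Over all genes, the shares below control were 53% in knockdown repeat 1, 51.9% in rescue repeat 1, 47.6% in knockdown repeat 2 and 52.9% in rescue repeat 2. So in repeat 1 most members were low in both knockdown and rescue, while in repeat 2 the knockdown had members spread on both sides of control.

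**Figure D1:**
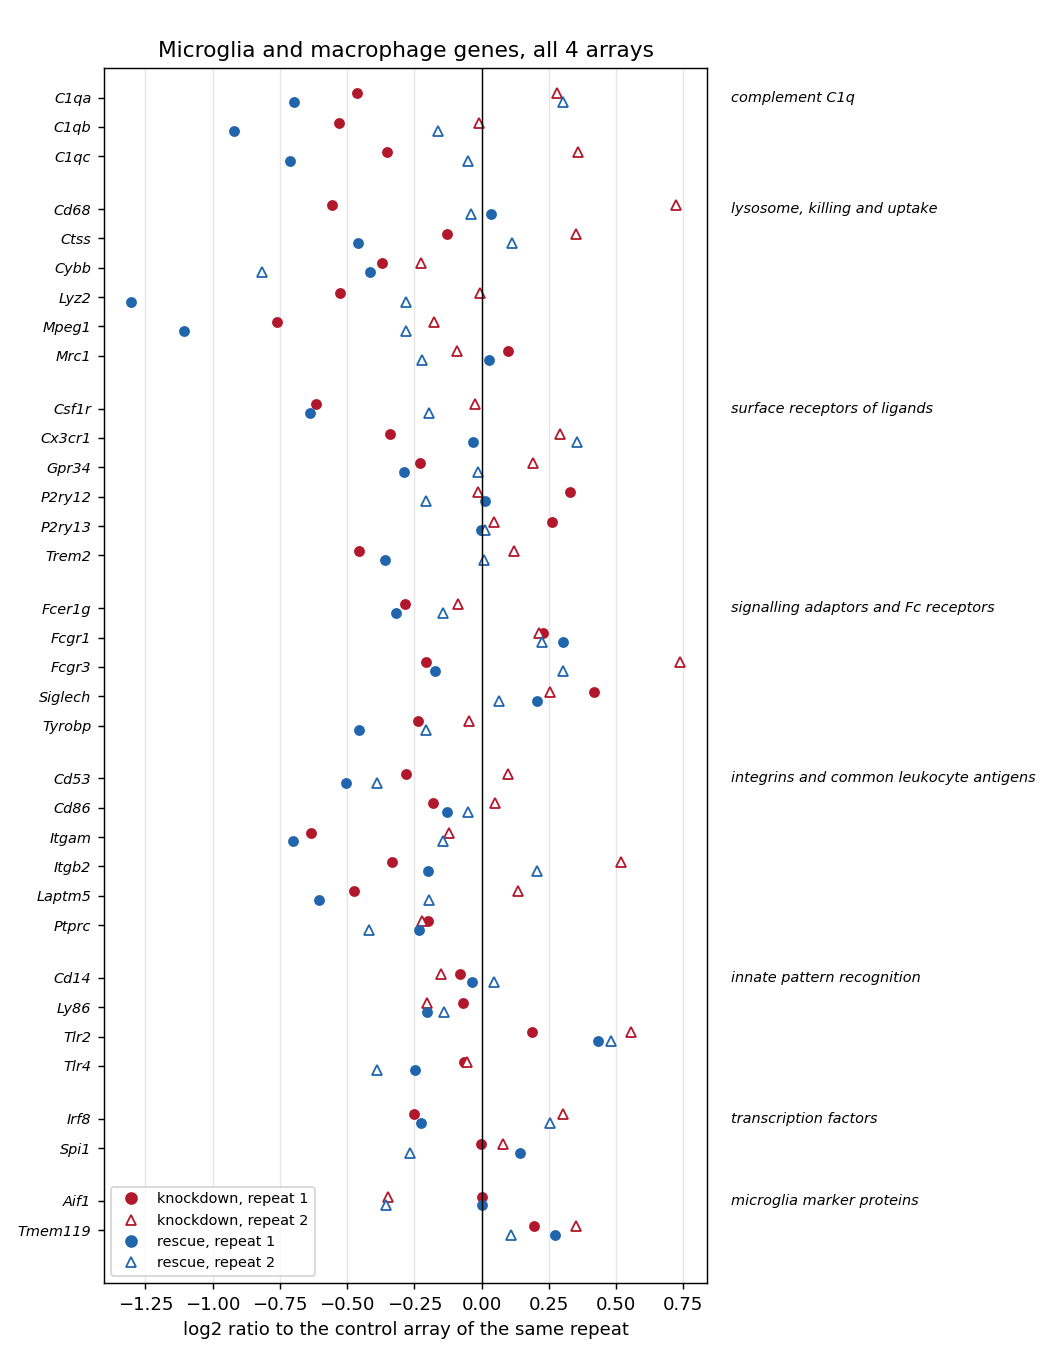
Log2 ratio of each of the 34 members to the control array of the same repeat (x axis), grouped by role (rows). Red marks are knockdown and blue marks rescue, filled circles repeat 1 and open triangles repeat 2. Lyz2 reaches -1.30 and Mpeg1 -1.11 in rescue repeat 1, and Cd68 reaches 0.72 in knockdown repeat 2.

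Low values were found mostly in repeat 1. Log2 ratios below -0.5 were found for 6 members in knockdown repeat 1 (17.6% of members, 2.79% of all genes) and for 0 in knockdown repeat 2 (6.6% of all genes). In the rescue they were found for 9 members in repeat 1 (26.5% of members, 2.26% of all genes) and for 1, Cybb, in repeat 2 (2.06% of all genes). Ratios above 0.5 were found for 4 members in knockdown repeat 2, Fcgr3, Cd68, Tlr2 and Itgb2 (6.14% of all genes). They were found for 0 members in knockdown repeat 1 (1.49% of all genes), rescue repeat 1 (2.06%) and rescue repeat 2 (1.55%). The bound of 0.5 was chosen with the values in view.

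**Figure D2:**
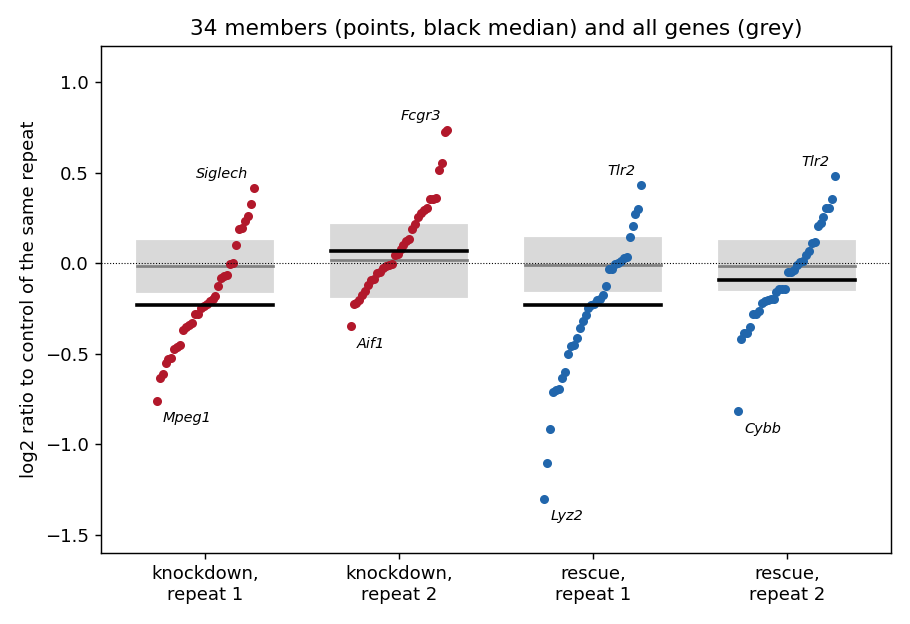
Log2 ratios of the 34 members (points, sorted within each column, black line at their median) in the 4 columns, against the middle range of all genes (grey box from the lower to the upper quartile, grey line at the median). The member median is at -0.23 in both columns of repeat 1, and at 0.06 in the knockdown and -0.10 in the rescue of repeat 2.

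Ratios in which the control array is the denominator cannot show whether a shared low value came from the knockdown and rescue cultures or from a high control culture, and the control arrays were not analysed here. In bulk RNA, fewer cells of a type and less RNA per cell cannot be told apart. The ratios also carry no signal level, so it could not be read whether a member was expressed at all, and probe sets near background could not be set apart.

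The 2 transcription factors of the set lay between -0.27 and 0.30 in every column. Spi1, which encodes PU.1, had log2 ratios of -0.0040 and 0.08 in the knockdown, against 0.14 and -0.27 in the rescue. Irf8, a partner of PU.1 in macrophages, had -0.25 and 0.30 in the knockdown, against -0.23 and 0.25 in the rescue. Irf8 thus took the sign of the repeat in both groups, and Spi1 had no shared order.

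Among surface receptors, Csf1r stood lowest in repeat 1. Csf1r, the receptor for the growth factors Csf1 and Il34 on which microglia depend, lay at -0.61 and -0.03 in the knockdown and at -0.64 and -0.20 in the rescue. In repeat 1 it ranked 287 from the lowest of 19938 genes in the knockdown and 143 in the rescue. Both groups were below control in each repeat, and the knockdown and rescue values of repeat 1 nearly coincided. Trem2, a lipid receptor of phagocytes, lay at -0.45 and 0.12 in the knockdown and at -0.36 and 0.01 in the rescue. Gpr34, a lysophospholipid receptor, lay at -0.23 and 0.19 in the knockdown and at -0.29 and -0.01 in the rescue. Both receptors were low in repeat 1 and at or above control in repeat 2, but for Gpr34 in rescue repeat 2.

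Receptors that mark surveying microglia did not share one pattern. P2ry12, the nucleotide receptor that guides microglial processes, lay at 0.33 and -0.01 in the knockdown and at 0.01 and -0.21 in the rescue. P2ry13, encoded next to it on chromosome 3, lay at 0.26 and 0.05 in the knockdown and at -0.0034 and 0.01 in the rescue. Cx3cr1, the receptor of the neuronal chemokine fractalkine, lay at -0.34 and 0.29 in the knockdown and at -0.03 and 0.36 in the rescue. P2ry12 and P2ry13 were therefore highest in knockdown repeat 1, while Csf1r and Trem2 were low in both columns of repeat 1.

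The 2 marker proteins also parted. Tmem119, a membrane protein used to tell microglia from other macrophages, lay at 0.19 and 0.35 in the knockdown and at 0.27 and 0.11 in the rescue, above control throughout. Aif1, the calcium-binding protein stained as Iba1, lay at 0.0032 and -0.35 in the knockdown and at 0.0015 and -0.36 in the rescue. Aif1 was at control in repeat 1 and below it in repeat 2, the opposite order of most members, and its knockdown and rescue values matched within each repeat.

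The adaptors Tyrobp and Fcer1g, which pass on signals from receptors that lack their own signalling tail, were below control in all 4 columns. Tyrobp lay at -0.24 and -0.05 in the knockdown and at -0.45 and -0.21 in the rescue. Fcer1g lay at -0.28 and -0.09 in the knockdown and at -0.32 and -0.14 in the rescue. Siglech, a lectin of microglia that signals through Tyrobp, went the other way, at 0.42 and 0.25 in the knockdown and at 0.21 and 0.07 in the rescue. Its knockdown values were both above its rescue values. Of the receptors for antibody, Fcgr1 was above control throughout, at 0.23 and 0.21 in the knockdown and at 0.30 and 0.22 in the rescue. Fcgr3 lay at -0.21 and 0.74 in the knockdown and at -0.17 and 0.30 in the rescue, so its sign followed the repeat.

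The 3 chains of complement C1q, the starter of the classical complement pathway, are encoded side by side on chromosome 4 and were low together in repeat 1. C1qa lay at -0.46 and 0.28 in the knockdown and at -0.70 and 0.30 in the rescue. C1qb lay at -0.53 and -0.01 in the knockdown and at -0.92 and -0.16 in the rescue. C1qc lay at -0.35 and 0.36 in the knockdown and at -0.71 and -0.05 in the rescue. In rescue repeat 1 they ranked 92, 21 and 84 from the lowest of all genes, and in that repeat each chain was lower in the rescue than in the knockdown. In repeat 2 they lay between -0.16 and 0.36.

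The lowest values of the set belonged to genes of uptake and killing. Lyz2, the lysozyme of macrophages, lay at -0.53 and -0.0073 in the knockdown and at -1.30 and -0.28 in the rescue. In rescue repeat 1 it was at 0.406 times control and ranked 3 from the lowest of all genes. Mpeg1, a pore-forming protein of the phagosome, lay at -0.76 and -0.18 in the knockdown and at -1.11 and -0.28 in the rescue, with rank 7 in rescue repeat 1. Both were below control in every column and lower in the rescue than in the knockdown within each repeat. The printed promoters of both held no GAGGAA letters in the bases shown.

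Other genes of this role did not all follow Lyz2. Cybb, the catalytic subunit of the phagocyte NADPH oxidase, lay at -0.37 and -0.23 in the knockdown and at -0.41 and -0.82 in the rescue, with its lowest value in repeat 2. Ctss, a lysosomal protease, lay at -0.13 and 0.35 in the knockdown and at -0.46 and 0.11 in the rescue. Cd68, a lysosomal membrane protein, lay at -0.55 and 0.72 in the knockdown and at 0.03 and -0.04 in the rescue. Cd68 thus was low in one knockdown sample, high in the other and at control in both rescue samples. Mrc1, the mannose receptor typical of macrophages at the borders of the brain, lay at 0.10 and -0.09 in the knockdown and at 0.03 and -0.22 in the rescue.

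Integrins and common leukocyte antigens were, like Csf1r, mostly lower in repeat 1. Itgam, the alpha chain of complement receptor CR3 (CD11b), lay at -0.63 and -0.12 in the knockdown and at -0.70 and -0.14 in the rescue. Its partner chain Itgb2 lay at -0.33 and 0.52 in the knockdown and at -0.20 and 0.21 in the rescue. Laptm5, a lysosomal membrane protein of leukocytes, lay at -0.48 and 0.14 in the knockdown and at -0.60 and -0.20 in the rescue. All 3 were lower in repeat 1 than in repeat 2 in both groups, and of the 2 integrin chains Itgam had the lower ratio in every column. Cd53, a tetraspanin of leukocytes, lay at -0.28 and 0.10 in the knockdown and at -0.50 and -0.39 in the rescue. Ptprc, the CD45 phosphatase of blood-derived cells, lay at -0.20 and -0.22 in the knockdown and at -0.23 and -0.42 in the rescue. For both, the knockdown values were above the rescue values. Cd86, a co-stimulatory ligand for T cells, stayed between -0.18 and 0.05 in all columns.

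Among receptors for microbial products, Tlr2 and Tlr4 lay on opposite sides of control. Tlr2, the receptor for bacterial lipoproteins, lay at 0.19 and 0.56 in the knockdown and at 0.43 and 0.48 in the rescue. Tlr4, the receptor for lipopolysaccharide, lay at -0.07 and -0.06 in the knockdown and at -0.25 and -0.39 in the rescue. Tlr2 was above control and Tlr4 below it in all 4 columns. Cd14, which hands lipopolysaccharide to Tlr4, lay at -0.08 and -0.15 in the knockdown and at -0.03 and 0.04 in the rescue. Ly86, a partner of the related receptor Cd180, lay between -0.20 and -0.07 throughout.

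No member passed the test in the knockdown against control. The 12 members below control in both knockdown repeats (31.1% of all genes) were Mpeg1, Itgam, Csf1r, Cybb, C1qb, Lyz2, Fcer1g, Tyrobp, Ptprc, Ly86, Cd14 and Tlr4. The 5 above control in both (30.5% of all genes) were Tlr2, Siglech, Tmem119, Fcgr1 and P2ry13. In limma, 0 of 34 members passed, against 61 of 19938 genes (0.306%). Without adjustment, 2 members, Tlr2 and Siglech, had p under 0.05, against 16% of all genes, and 8 in the fit with a block on repeat, against 23.8%. The median of the members' mean log2 ratios was -0.06, with 20 of 34 means below 0, against a median of 0.0020 over all genes. At so small a share over all genes, a count of 0 among 34 is near the background.

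The means of single members against control in the knockdown lay between -0.47 and 0.37. Mpeg1 averaged -0.47 (SE 0.21, 95% confidence interval -0.95 to 0.02, n = 2, limma adjusted p = 0.326). With the block on repeat, which takes out what both groups of a repeat share, the same mean passed (limma adjusted p = 0.0448), as the 1 member among 1074 genes (5.39%) called in that fit. For a test against control, that shared part holds the spread between repeats and their control arrays, so this p-value does not cover it. Tlr2 averaged 0.37 (SE 0.13, 95% confidence interval 0.07 to 0.67, n = 2, limma adjusted p = 0.231). Siglech averaged 0.33 (SE 0.12, limma adjusted p = 0.235) and Tmem119 averaged 0.27 (SE 0.12, limma adjusted p = 0.322). Itgam, Csf1r, Cybb and C1qb averaged between -0.38 and -0.27, with limma adjusted p between 0.333 and 0.537. Without knockdown repeat 1, the lone values of repeat 2 passed for Cd68 (0.72, limma adjusted p = 0.0235) and Fcgr3 (0.74, limma adjusted p = 0.0300), in a fit that called 1272 genes and took the lone sample to vary like the rescue pair.

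No member passed the test in the rescue against control either, and the lowest means were those of Lyz2, Mpeg1 and Cybb. The 16 members below control in both rescue repeats (29.8% of all genes) were Lyz2, Mpeg1, Cybb, C1qb, C1qc, Cd53, Itgam, Csf1r, Laptm5, Tyrobp, Fcer1g, Ptprc, Tlr4, Ly86, Gpr34 and Cd86. The 4 members above control in both rescue repeats (24.9% of all genes) were Tlr2, Tmem119, Fcgr1 and Siglech. In limma, 0 of 34 members passed, against 0 of 19938 genes (0%), and 25 genes (0.125%) but 0 members passed with a block on repeat, where 14 members had p under 0.05 before adjustment, against 13% of all genes. Without adjustment, 12 members had p under 0.05, against 7.44% of all genes: C1qb, Cd53, Csf1r, Cybb, Itgam, Laptm5, Lyz2, Mpeg1, Ptprc, Tlr4 and Tyrobp with a mean below control, and Tlr2 with a mean above it. The median of the members' means was -0.17, with 24 of 34 below 0, against a median of -0.01 over all genes.

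Lyz2 had the lowest mean in the rescue, -0.79 (SE 0.23, 95% confidence interval -1.32 to -0.26, n = 2), which is 0.578 times control, and did not pass (limma adjusted p = 0.564, and 0.0596 with the block on repeat). Mpeg1 averaged -0.69 (SE 0.21, 95% confidence interval -1.18 to -0.21, n = 2, limma adjusted p = 0.567, and 0.0677 with the block). Cybb averaged -0.62 (SE 0.14, 95% confidence interval -0.93 to -0.30, n = 2, limma adjusted p = 0.464, and 0.0920 with the block). These 3 passed where the spread was taken from the rescue samples alone (adjusted p = 0.0223 for Lyz2, 0.0336 for Mpeg1 and 0.0319 for Cybb in limma, with 176 genes called), and likewise with either knockdown sample left out, so the call depended on which samples set the spread. C1qb averaged -0.54, Cd53 -0.45, Itgam -0.42 and Csf1r -0.42, and Tlr2 averaged 0.46. Their limma adjusted p lay between 0.564 and 0.661.

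The difference between knockdown and rescue within a repeat does not contain the control array, since the same array divides both ratios. The median member difference, knockdown minus rescue, was 0.05 in repeat 1 with 22 of 34 above 0 (48% of all genes), and 0.16 in repeat 2 with 29 of 34 above 0 (57.7% of all genes). The medians over all genes were -0.01 and 0.05. Members were higher in the knockdown within both repeats in 20 cases (30.1% of all genes) and lower within both in 3, Cx3cr1, Cd14 and Fcgr1 (24.3% of all genes). Both knockdown values lay above both rescue values for 6 members, Cybb, Cd53, Tlr4, Ptprc, Siglech and P2ry13 (16.5% of all genes). They lay below both for 1, Cd14 (15.1% of all genes). The share of members without overlap and higher in the knockdown was near that of all genes. The median of the members' mean differences was 0.10, against 0.02 over all genes. It was 0.29 without knockdown repeat 1, -0.01 without knockdown repeat 2, 0.0017 without rescue repeat 1 and 0.17 without rescue repeat 2. Leaving out 1 sample unpairs the repeats, so the control arrays no longer cancel in these values. They therefore do not measure how far the size of the median rested on single samples.

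No member passed the test between knockdown and rescue. In limma, 0 of 34 members passed, against 14 of 19938 genes (0.0702%), and 0 members had an unadjusted p under 0.05, against 6.82% of all genes. With the block on repeat, 0 members passed, against 123 genes (0.617%), and 3 members, Lyz2, C1qc and Cd53, had an unadjusted p under 0.05 (11.3% of all genes). Lyz2 had the largest mean difference, 0.52 (SE 0.33, 95% confidence interval -0.23 to 1.28, n = 2, limma adjusted p = 0.948), from 0.77 in repeat 1 and 0.27 in repeat 2. C1qc differed by 0.36 and 0.41, Cd53 by 0.22 and 0.48, Cybb by 0.04 and 0.59, Ctss by 0.33 and 0.24, and C1qb by 0.39 and 0.15. In the fit without the block, which ignores the pairing, the 95% confidence intervals of these differences all included 0. With the block, Lyz2, C1qc and Cd53 had an unadjusted p under 0.05, and the lowest limma adjusted p was 0.249 (Lyz2). No difference was therefore resolved after adjustment over all genes. Cd68 differed by -0.59 in repeat 1 and 0.76 in repeat 2, the largest disagreement between repeats among the 34 members.

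**Figure D3:**
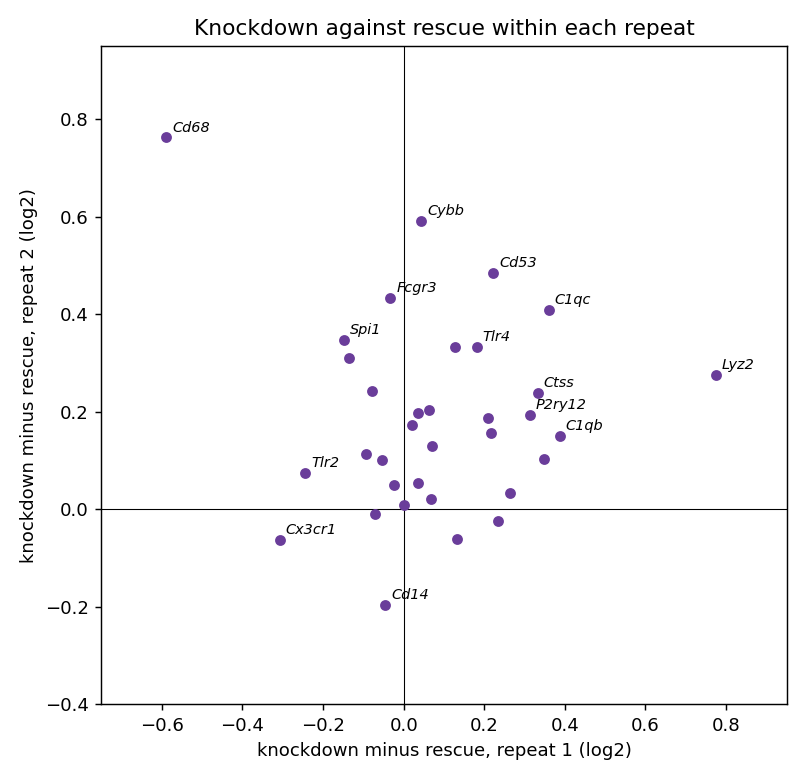
Knockdown minus rescue (log2) of each of the 34 members in repeat 1 (x axis) and repeat 2 (y axis), in which the shared control array cancels. The upper right field, positive on both axes, holds 20 members, with Lyz2 at 0.77 and 0.27, and Cd68 stands alone at -0.59 and 0.76.

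Most members stood higher against control in repeat 2 than in repeat 1. In the knockdown, repeat 2 minus repeat 1 had a member median of 0.37, with 25 of 34 above 0 (53.3% of all genes) and 14 above 0.5 (6.87% of all genes). In the rescue the same difference had a member median of 0.15, with 23 above 0 (48.7% of all genes) and 7 above 0.5 (4.53% of all genes). The medians over all genes were 0.02 and -0.01. The largest gaps were 1.28 for Cd68 in the knockdown and 1.02 for Lyz2 in the rescue. Each repeat has its own control array, and the labels do not tie pup genotype to an array. Culture, array, control and possibly Syt1 genotype therefore cannot be told apart in this gap. Over the 34 members, the 2 knockdown columns had a Pearson correlation of 0.05 and the 2 rescue columns of 0.36, against 0.40 and 0.21 over all genes, as a description of columns without a shared array.

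Genes that act around the members were read from further lists, none of which had a gene past the test in any of the 3 comparisons. Of 20 lists with 304 distinct genes, 285 genes were measured. Besides the member Mrc1 these were 284 genes, of which 52 (18.3%) had an unadjusted p under 0.05 in the knockdown against control, 28 (9.86%) in the rescue against control and 26 (9.15%) in the knockdown against rescue. The shares over all genes were 16%, 7.44% and 6.82%. With the block on repeat, 17 (5.99%), 1 (0.352%) and 0 of them passed, against 5.39%, 0.125% and 0.617% of all genes. These shares were near those of all genes. The 18 other microglia markers had medians of -0.03 and 0.22 in the knockdown, against -0.04 and 0.07 in the rescue. The 8 border macrophage markers had medians of 0.09 and -0.02 in the knockdown, against -0.02 and -0.17 in the rescue. These lists did not share the low median of the members in repeat 1, though single genes were low there. Stab1, a border macrophage marker, lay in repeat 1 at -0.47 in the knockdown and -0.70 in the rescue. Of the 8 border macrophage markers, 6 were above control in knockdown repeat 1 and 4 in rescue repeat 1. The 20 genes of disease-associated microglia had medians of 0.09 and 0.39 in the knockdown, against -0.17 and -0.01 in the rescue, and the 24 lysosome and phagocytosis genes 0.07 and 0.36 in the knockdown, against -0.05 and 0.01 in the rescue. Many genes of both lists are also used by other cell types of the cortex.

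**Figure D4:**
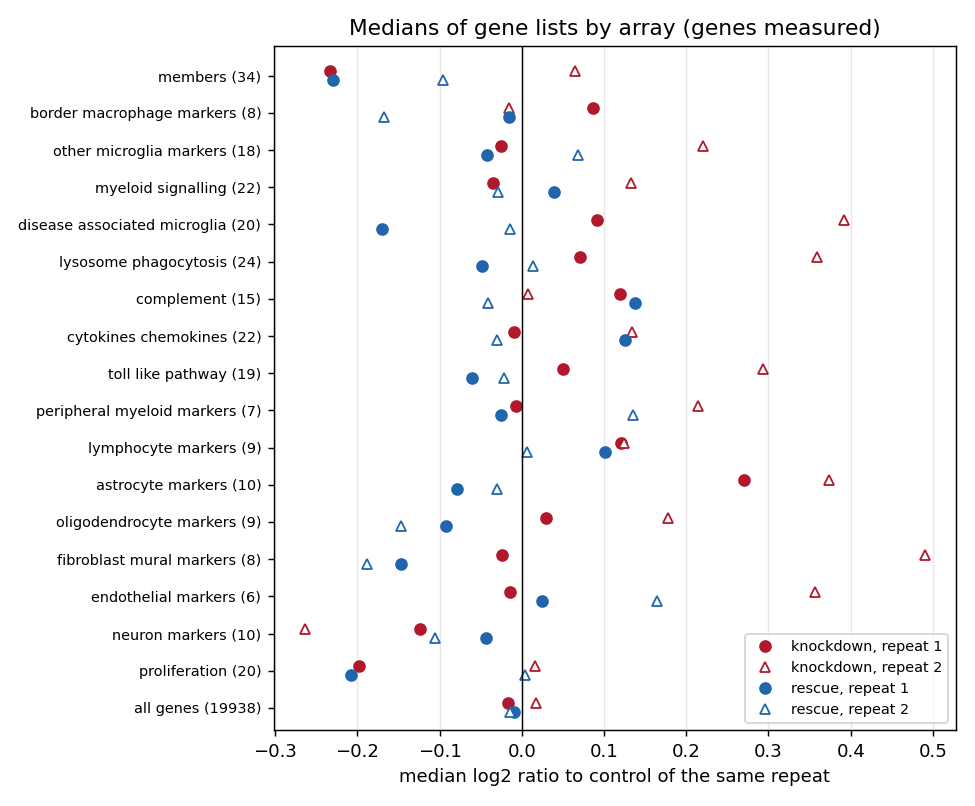
Median log2 ratio to control of the members and of 16 further gene lists (rows, with the number of genes measured) and of all genes, with red marks for knockdown, blue for rescue, filled circles for repeat 1 and open triangles for repeat 2. The members lie at -0.23 in both columns of repeat 1, and the astrocyte markers at 0.27 and 0.37 in the knockdown.

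Ligands of the members were measured beside their receptors. Csf1, a growth factor for Csf1r, lay at 0.17 and 0.72 in the knockdown and at -0.15 and 0.15 in the rescue. Il34, the neuronal ligand of the same receptor, lay at -0.17 and -0.64 in the knockdown and at -0.17 and -0.02 in the rescue. In the knockdown against control, neither passed (limma adjusted p = 0.232 for Csf1 and 0.231 for Il34), and their signs were opposite. All 12 ligand genes together had medians of 0.07 and -0.03 in the knockdown, against 0.03 and 0.08 in the rescue.

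Some complement genes other than C1q stood above control in the knockdown. C4b, a complement component cleaved after C1q binds, lay at 0.71 and 1.08 in the knockdown and at 0.15 and -0.31 in the rescue. C1s1, a protease of the C1 complex, lay at 0.48 and 1.10 in the knockdown and at 0.03 and 0.25 in the rescue. Serping1, the inhibitor of that complex, lay at 0.43 and 1.46 in the knockdown and at 0.24 and 0.29 in the rescue. All 3 were above control in both knockdown repeats, where the C1q chains were between -0.53 and 0.36. Against control, limma gave adjusted p = 0.0668 for C4b, 0.0905 for C1s1 and 0.103 for Serping1, and with the block on repeat these 3 of 15 complement genes passed (0.0176 for C4b, 0.0134 for C1s1 and 0.0192 for Serping1), in a fit that called 5.39% of all genes.

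Markers of other cells were read in the same columns. The 10 astrocyte markers had medians of 0.27 and 0.37 in the knockdown, against -0.08 and -0.03 in the rescue, and 0 passed (3 higher with the block, against control: Sox9, Gja1 and S100b). The 8 fibroblast and mural markers had medians of -0.02 and 0.49 in the knockdown, against -0.15 and -0.19 in the rescue, and the 10 neuron markers -0.12 and -0.26 in the knockdown, against -0.04 and -0.11 in the rescue. The neuron median hides opposite values in the knockdown, with Nefm at 0.88 and 1.58 and Gad1 at -0.65 and -1.14. Slc17a7 lay there at -0.57 and -1.04, and Rbfox3 at -0.50 and -0.79. Of the neuron markers 0 passed, and with the block 1 was higher and 3 lower in the knockdown against control (5.39% of all genes called). The 20 proliferation genes had medians of -0.20 and 0.02 in the knockdown, against -0.21 and 0.0045 in the rescue, low in repeat 1 and at control in repeat 2. The 7 peripheral myeloid markers had medians of -0.01 and 0.21 in the knockdown, against -0.03 and 0.13 in the rescue, and the 9 lymphocyte markers 0.12 and 0.12 in the knockdown, against 0.10 and 0.01 in the rescue. What part these other cells had in the members' values was not tested.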

How the data were processed

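The authors deposited 1 linear ratio per probe set and sample, which sets the knockdown or rescue array over the control array of its own repeat, per the labels and the design text. Background correction, summarization and normalization are not given in the sources used here, and the 2 control arrays were not analysed here. Of 35399 probe sets, 21789 had exactly 1 gene symbol, 1621 several and 11989 were not listed in the platform annotation. RefSeq names of GRCm38.p6, matched by Entrez identifier for 21698 probe sets, left every symbol as it was (0 changed). Log2 ratios were averaged per symbol (19938 genes).

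Limma 3.58.1 (R 4.3.3, lmFit and eBayes, two-sided) fitted a coefficient for each group without an intercept. Each was tested against 0, the control level, and knockdown and rescue were compared by the difference of coefficients. The spread was estimated over all 4 columns, with 2 residual and 6.11 prior degrees of freedom, and Benjamini-Hochberg adjustment ran over all genes. The code was tested on simulated data. In a test of a ratio against 0, spread of the control enters only as far as its array differs between repeats. No label states separate cultures for the repeats, so the p-values reflect only how these samples spread, possibly for technical reasons, and precision is limited by the number of arrays. Samples with the same number carry the same repeat day in the labels, which pairs them. Over all genes, the deviations from the group means of knockdown and rescue samples of a repeat correlated at 0.305. The fit with the repeat as a block has 1 residual degree of freedom and is given where it changes a call. In a test against control, the block also takes out the difference between the control arrays of the 2 repeats. Its p-values against control, for any gene, therefore leave out that spread, while in the knockdown against rescue the control array cancels.

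Alternatives were centring each column on its median, quantile normalization, the block, the median over probe sets, testing every probe set, a group's own columns only, and leaving out each sample. The members, the lists of other genes, the motif and the bound of 0.5 were chosen with earlier results of these data known. Means, errors and p-values are printed, in each comparison, for members that passed and for up to 8 members with the largest absolute mean among those whose repeats share a sign, and up to 4 genes of each other list were named by the same rule.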

Additional observations from a re-analysis of the deposited data

Results flagged for a closer look

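Of 284 genes of the other lists, 21 (7.39%) lay above control in both knockdown samples and below it in both rescue samples, against 881 of 19938 genes (4.42%) and 0 of the 34 microglia and macrophage genes. Gfap, Sox9, Cd44 and Gas6, chosen after their values were seen, are 4 of them. Gfap, the filament protein of astrocytes, lay at 0.28 and 0.41 in the knockdown and at -0.46 and -0.31 in the rescue, a mean difference of 0.73 (limma adjusted p = 0.300). Sox9, a transcription factor of astrocytes, lay at 0.45 and 0.44 in the knockdown and at -0.22 and -0.19 in the rescue, a mean difference of 0.64 (limma adjusted p = 0.341). Cd44, a hyaluronan receptor, had a mean difference of 0.66 (limma adjusted p = 0.459), and Gas6, a ligand of the phagocytic receptors Axl and Mertk, one of 0.56 (limma adjusted p = 0.497). None of these 4 differences passed.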

How the results depend on the processing

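With 2 samples a group, counts of calls depended strongly on the fit. In the knockdown against control, 61 genes passed, against 20 after quantile normalization, 1074 with the replicate (repeat) as a block, 0 when every probe set was tested and 12 from the group's own columns, and 12 to 1272 with 1 sample left out. In the rescue against control, 0 genes passed, against 1 after quantile normalization, 25 with the block and 176 from the group's own columns, and 0 to 176 with 1 sample left out. In the knockdown against rescue, 14 genes passed, against 4 after centring, 2 after quantile normalization, 123 with the block, 4 with the median over probe sets and 0 when every probe set was tested, and 0 to 350 with 1 sample left out. Members called in the knockdown against control numbered 1 with the block (Mpeg1) and 0 to 2 with 1 sample left out. In the rescue against control they numbered 3 from the group's own columns (Lyz2, Cybb and Mpeg1) and 0 to 3 with 1 sample left out. The block changed no other member call. The member median in the knockdown against rescue ranged from -0.015 to 0.29 with 1 sample left out, which unpairs the repeats and brings the control arrays back in. The mean difference of C1qb ranged from -0.11 to 0.65 and that of Ctss from -0.0016 to 0.57, each negative only without rescue replicate 1. That fit sets both knockdown samples against rescue repeat 2 alone, so the repeats are not paired in it. Within repeats 1 and 2 the differences were positive, 0.39 and 0.15 for C1qb and 0.33 and 0.24 for Ctss. Of 208 alternative values for the 24 means of named members, 206 kept their direction. Members were named only where both repeats shared a sign, so leaving out a sample could not turn a mean against control. The block does not alter a mean, nor does the median over probe sets where a member has 1 probe set. Most of these values were thus bound to keep their direction, and the count does not measure stability. The causes of these shifts were not tested. Without signal levels, no result could be limited to bright probe sets.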

Other observations

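Several myeloid genes outside the set lay apart from control in single columns, and none passed the test in limma. Cd36, a scavenger receptor, lay at -0.03 and 0.11 in the knockdown and at -0.70 and -0.63 in the rescue, a mean of -0.66 in the rescue against control (SE 0.12, limma adjusted p = 0.464) and a knockdown minus rescue difference of 0.70 (SE 0.17, limma adjusted p = 0.306). The 2 rescue samples were close to each other and both were below both knockdown samples. Ccl3, a chemokine of activated microglia, lay at -0.65 and -0.05 in the knockdown and at -1.06 and -0.25 in the rescue, low in repeat 1 as Mpeg1 and Lyz2 were. C3ar1, the receptor of the complement fragment C3a, lay at -0.22 and 0.01 in the knockdown and at -0.74 and -0.17 in the rescue. Cxcl10, an interferon-induced chemokine, went the other way, at -0.10 and 1.17 in the knockdown and at 0.62 and 1.07 in the rescue.

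In the knockdown, Mef2c and Cebpd, transcription factors used by myeloid cells, stood further from control than Spi1 and Irf8 in both repeats. Mef2c lay at -0.62 and -0.89 in the knockdown and at -0.16 and 0.29 in the rescue (mean in the knockdown against control -0.75, SE 0.15, limma adjusted p = 0.0837, and 0.0231 with the block on repeat). Cebpd lay at 0.45 and 1.25 in the knockdown and at 0.67 and 0.37 in the rescue (mean in the knockdown against control 0.85, SE 0.19, limma adjusted p = 0.0999, and 0.0301 with the block). Both are also active in neurons or astrocytes, so in bulk RNA their values belong to no one cell type.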
